A study of Mus musculus with 6 samples.

Results

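Complex I of the respiratory chain, the NADH:ubiquinone oxidoreductase, was followed through the 46 protein-coding genes whose symbol starts with Nduf. They were found among the 31053 gene rows of the count table by matching Ensembl identifiers to symbols, and pseudogenes were left out. Of the 46 genes, 38 carry a subunit symbol and 8 are named Ndufaf, for assembly factors, which bind the growing enzyme and leave before it is complete. The products of 2 of the 38, Ndufa4 and its paralogue Ndufa4l2, are not subunits of the intact complex I, so 36 subunit genes remain. No Ndufb1 gene is protein-coding in the mouse annotation used (GENCODE M21), so it has no row here.

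Complex I takes electrons from NADH, passes them along a chain of iron-sulfur clusters to ubiquinone and pumps protons across the inner mitochondrial membrane. Its N module holds the NADH site, its Q module the ubiquinone site, and its membrane arm, with a proximal and a distal part, does the pumping. The nuclear Nduf genes encode all of it except the core of the membrane arm, which is encoded by the mt-Nd genes of the mitochondrial genome.

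Bulk RNA sequencing libraries of the cerebellum of 2 WT and 3 KIKO mice were compared. KIKO stands for knock-in knock-out and is a mouse model of Friedreich's ataxia, a disease in which mitochondria fail. WT mice were C57BL/6 littermates, and the labels give no treatment for either group. The study used female and male mice. It describes CD45+/CD11b+ cells, the macrophages and microglia, taken by magnetic beads from the cerebellum of 6-mo-old animals whose sex is not given. The labels name cerebellum and genotype, and kits other than those of the methods. They do not say to which of the study's experiments these libraries belong. The labels thus do not settle age, sex or whether cells were sorted. A WT replicate 3 is named in the labels, but no column of values was matched to it, so it was not analysed here. Nothing in the labels says more about how the replicates were obtained, so p-values weigh the genotype difference only against the spread between these libraries within a genotype.

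The libraries held between 1013107 and 1351339 counts, and 3 counts corresponded to between 2.28 and 3.04 normalized CPM (counts scaled to a common library size with TMM factors). KIKO replicate 2 stood apart: across tested genes its log2 CPM correlated with the other libraries with r from 0.672 to 0.747, against 0.884 to 0.931 among the others, so values are also given without it. All 8 microglia markers were detected, with summed CPM from 4587 to 5773 in WT and from 4059 to 10445 in KIKO mice. Transcripts of cells that the gate would remove were present too, since the 4 choroid plexus markers summed to between 6612 and 14150 CPM and the 6 granule neuron markers to between 1723 and 2800 CPM over the 5 libraries. Sums follow the most abundant genes of a list and do not rank the cell types. The median log2(CPM + 1) of the choroid plexus markers ran from 4.56 to 6.45 over the libraries, against 9.23 to 9.96 for the microglia markers. No marker of the 8 cell types listed was at 0, and the summed level of each list overlapped between the genotypes.

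Complex I genes are transcribed from GC-rich promoters in which sites of GABP, NRF1 and YY1 are well known, and these letters were searched in the RefSeq windows of 300 bases around the gene starts (build GRCm38.p6, 250 bases before and 50 after). Windows existed for 40 of the 46 genes, 42 windows in all. The GABP letters CCGGAAG, read on both strands, stood in 14.3% of the complex I windows and in 8.86% of all 32851 windows. The NRF1 letters, GCGC followed by A, any base and GCGC again, stood in 23.8% against 4.6%, and the YY1 letters AAGATGGCG in 14.3% against 1.4%. Matches of different motifs overlapped in 0 windows. At least 1 of the 3 motifs was found for 19 of the 40 genes, in 47.6% of their windows compared with 13.6% of all windows. These shares describe letters in a window, not binding, and no test was made.

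The stretches below run from 120 bases before the start to the end of the last match, 5′ to 3′ on the strand of the gene, with matches in capitals. Ndufaf8 and Ndufc1 are shown because they had the smallest p among the genes with higher values in KIKO mice, Ndufs8 because it had the smallest among those with lower values, and Ndufb4 because its window held the most NRF1 matches, 3, of which 2 fall in the stretch. They lie at chr11:120098814-120098952 (plus strand), chr3:51408925-51409075, chr19:3912753-3912894 and chr16:37654381-37654488 (minus strand).
Ndufaf8: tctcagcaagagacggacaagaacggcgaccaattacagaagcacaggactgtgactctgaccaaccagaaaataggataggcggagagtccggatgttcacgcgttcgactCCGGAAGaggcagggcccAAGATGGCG
Ndufc1: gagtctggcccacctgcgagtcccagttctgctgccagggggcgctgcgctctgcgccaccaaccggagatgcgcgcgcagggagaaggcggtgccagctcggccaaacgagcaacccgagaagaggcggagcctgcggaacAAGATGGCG
Ndufs8: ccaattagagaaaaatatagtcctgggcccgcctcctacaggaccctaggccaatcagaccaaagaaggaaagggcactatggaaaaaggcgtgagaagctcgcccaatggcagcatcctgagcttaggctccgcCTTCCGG
Ndufb4: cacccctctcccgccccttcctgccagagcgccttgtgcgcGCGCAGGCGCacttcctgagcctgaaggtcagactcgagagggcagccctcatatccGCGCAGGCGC
Ndufaf8 held the GABP and the YY1 letters, Ndufc1 the YY1 letters, and Ndufs8 the GABP letters on the other strand. The genes with the smallest p in opposite directions, Ndufaf8 and Ndufs8, thus both held a GABP match. The GABP letters also stood in the windows of Ndufaf1, Ndufb6, Ndufb7 and Ndufs3, and not in that of Ndufc1.

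All 46 genes had more than 3 counts in at least 1 library, and 42 had more than 3 in all 5. The 36 subunit genes together made up between 0.229% and 0.34% of a library's counts. On the CPM scale the highest genes, by the mean of 5 libraries, were Ndufa10, an accessory subunit of the membrane arm, Ndufv3, an accessory subunit of the N module, and Ndufa6, which binds the acyl carrier protein. Ndufa10 had 183.3 and 214.6 CPM in WT replicates 1 and 2 and 190.8, 59.5 and 216.1 CPM in KIKO replicates 1, 2 and 3, the order in which values are given below. Ndufv3 had 118.5 and 151.7 CPM in WT and 141.2, 224.1 and 137 CPM in KIKO mice. Ndufa6 had 95.6 and 125.9 CPM in WT and 95.4, 348.5 and 88.3 CPM in KIKO mice. In each of the 3 genes KIKO replicate 2 was the library farthest from the others, lowest for Ndufa10 and highest for Ndufv3 and Ndufa6.

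The lowest genes that could be tested were Ndufs5, an accessory subunit on the intermembrane space side, and the assembly factors Ndufaf5 and Ndufaf3. Ndufs5 had 0.996 and 9.10 CPM in WT and 9.46, 0 and 1.01 CPM in KIKO mice, values that changed between libraries of the same genotype. The exons of Ndufs5 share 24.1% of their 75-base windows with BC002163, so that its reads may be split between the pair. Read per kilobase of exon, with all annotated exons of a gene merged, the order was different. On this scale Ndufa2 led with 208.2 CPM per kb, ahead of Ndufb3 with 180.8 and Ndufa5 with 128.3. Ndufa2, Ndufb3 and Ndufa5 were picked after their values were seen. Merged exons can be longer than a single transcript, so the order depends on the length used. Ndufa6 had 1801 merged exon bases, but its longest protein-coding transcript held only 516 windows of 75 bases. Because the study describes a digital mRNA-seq service whose counts may not grow with transcript length, both scales are given.

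**Figure D1:**
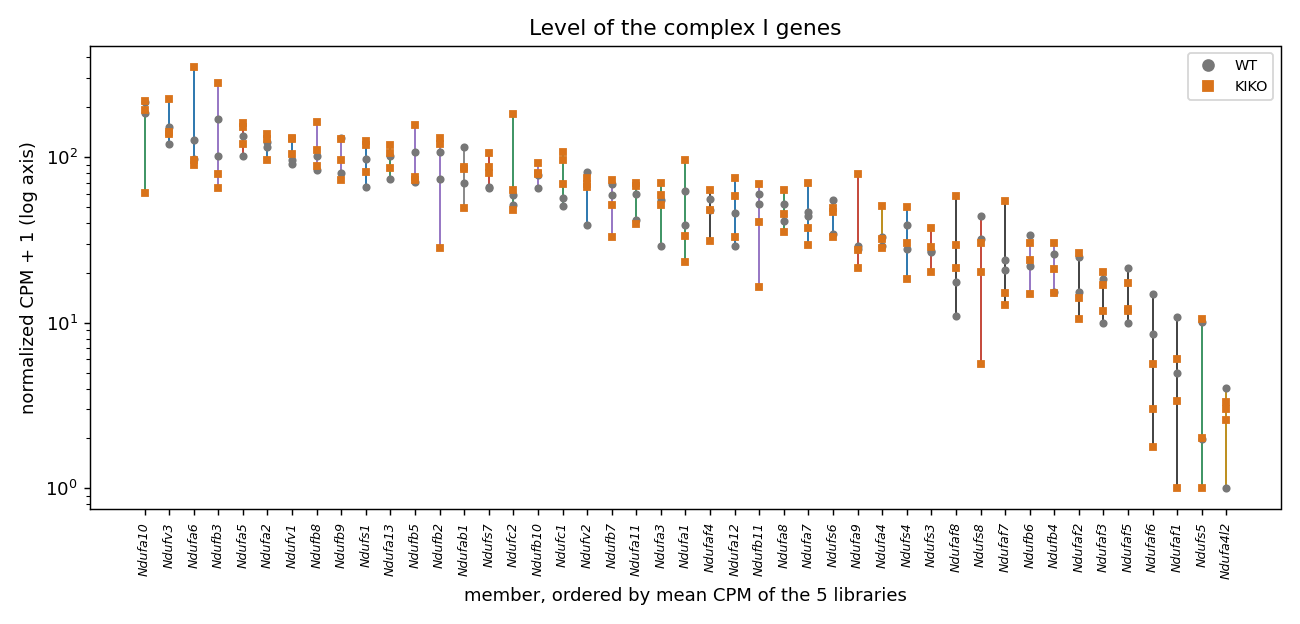
Normalized CPM plus 1 (log axis) of 45 of the 46 complex I genes in each library, ordered by the mean CPM of the 5 libraries, with WT libraries as circles and KIKO libraries as squares and a line from the lowest to the highest library. The means run from 172.9 CPM for Ndufa10 to 1.79 CPM for Ndufa4l2, and the symbols of the genotypes lie among each other for most genes.

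The comparison of KIKO with WT mice asked whether transcripts of complex I differ in this model. None of the 43 complex I genes that could be tested passed the thresholds of the study, a log2 fold change over 0.75 in size and an unadjusted p under 0.05, against 1.2% of all 10889 genes tested, 0.716% with higher and 0.487% with lower values in KIKO mice (edgeR's quasi-likelihood test). With Benjamini-Hochberg adjustment over all genes, 0 of the 43 had an adjusted p under 0.05, as was so for 0% of all genes. At an unadjusted p under 0.05, edgeR found 0 of the 43 and DESeq2 put 0 past the thresholds. The smallest unadjusted p was 0.057, for Ndufaf8, and the adjusted p was 1 for all 43. Standard errors of the log2 fold changes lay between 0.35 and 1.52, and the narrowest 95% confidence interval, that of Ndufv1, ran from −0.41 to 1.18, so that smaller differences could not be told from 0 with these libraries.

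The fitted difference was above 0 for 30 of the 43 genes (69.8%), compared with 51.9% of all genes tested. The median log2 fold change was 0.19 over the 43 genes and 0.0215 over all genes. It was 0.20 for the 37 subunit symbols tested, of which 27 had higher and 10 lower values in KIKO mice, and 0.032 for the 6 assembly factors tested, 3 higher and 3 lower. The median of the assembly factors ran from −0.20 without WT replicate 1 to 0.39 without WT replicate 2, and was −0.19 with every gene with at least 1 count. The summed level of the 36 subunit genes was 2507 ± 177 CPM (SD, n = 2) in WT and 2837 ± 373 CPM (SD, n = 3) in KIKO mice. KIKO replicate 2 was the highest, at 3266 CPM. WT replicate 2, at 2633 CPM, lay between KIKO replicates 1 and 3, at 2591 and 2655 CPM, so the groups overlapped. Without KIKO replicate 2, 24 of the 43 genes were higher, compared with 49.1% of all genes, and the median was 0.033 beside −0.011 for all genes. All 4 Purkinje neuron markers also had higher fitted values in KIKO mice, with sums of 252.6 to 370.6 CPM in WT and 289.8 to 552.8 CPM in KIKO mice, and 4 of 4 were higher without KIKO replicate 2. Of 8 microglia markers, 7 had higher fitted values, or 1 without KIKO replicate 2, with sums of 4587 to 5773 CPM in WT and 4059 to 10445 CPM in KIKO mice. Of 6 granule neuron markers, 5 had higher fitted values, or 4 without that library, with sums of 1769 to 2696 CPM in WT and 1723 to 2800 CPM in KIKO mice. Of 4 choroid plexus markers, 1 had a higher fitted value, or 0 without KIKO replicate 2, and of 3 endothelium markers 1, or 2 without it. Higher values were found for 3 of 4 astrocyte, 3 of 4 oligodendrocyte and 3 of 5 blood markers, or 3, 1 and 2 without that library. The part of these cell types in the result was not tested. In bulk samples, fewer cells of a type and less RNA per cell cannot be told apart.

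**Figure D2:**
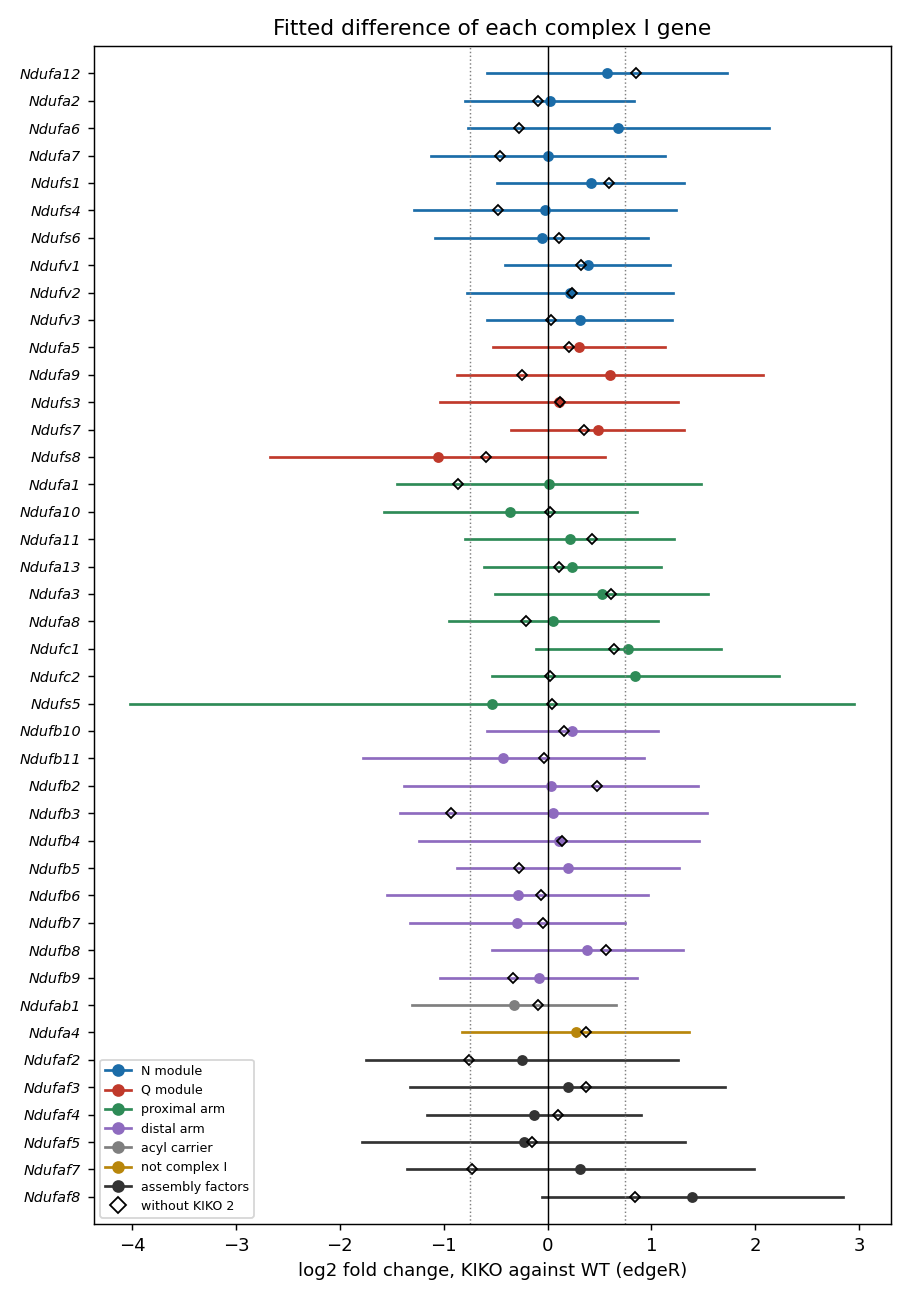
Log2 fold change of KIKO against WT for 42 of the 43 complex I genes tested (edgeR), with 95% confidence intervals as lines, colours for the parts of the enzyme, open diamonds for the value without KIKO replicate 2 and dotted lines at 0.75 in size. Every interval includes 0, from Ndufaf8 at 1.39 to Ndufs8 at −1.06, and for many genes the diamond lies far from the filled point.

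The parts of the enzyme were compared by the direction of their genes. In the N module, 8 of 10 genes were higher in KIKO mice, with a median log2 fold change of 0.26. In the Q module, 5 of 6 were higher, with a median of 0.28. In the proximal membrane arm, 7 of 9 were higher, with a median of 0.21, and in the distal arm 6 of 10, with a median of 0.045. Without KIKO replicate 2 the medians were 0.074, −0.015, 0.041 and −0.04 in the same order. None of these genes passed the thresholds with all 5 libraries.

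The 7 core subunits, the conserved set that carries out electron transfer, are counted in all groups below, and 6 of them are described with coordinates of GRCm38. Ndufv1 (chromosome 19, 4007384 to 4012806), which binds NADH and the flavin, had 94.6 and 89.5 CPM in WT and 127, 129.8 and 103.5 CPM in KIKO mice. Every KIKO library lay above both WT libraries, and the log2 fold change was 0.38 (95% confidence interval −0.41 to 1.18, unadjusted p = 0.301). Ndufv2 (chromosome 17, 66078638 to 66101559), its partner with an iron-sulfur cluster of its own, had 37.9 and 80.4 CPM in WT and 73.3, 64.9 and 68 CPM in KIKO mice. The WT libraries lay on either side of all KIKO libraries, and the log2 fold change was 0.21 (standard error 0.43, unadjusted p = 0.638). Ndufs1 (chromosome 1, 63143596 to 63176833), the largest subunit, which passes electrons along several clusters, had 95.6 and 65.2 CPM in WT and 116.7, 80.4 and 124.8 CPM in KIKO mice. Its groups overlapped through KIKO replicate 2, and the log2 fold change was 0.42 (−0.48 to 1.32, unadjusted p = 0.319).

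In the Q module, Ndufs7 (chromosome 10, 80249121 to 80256794) carries the last cluster before ubiquinone. It had 63.8 and 65.2 CPM in WT and 78.9, 105.1 and 86.3 CPM in KIKO mice, all KIKO libraries being higher, with a log2 fold change of 0.48 (−0.35 to 1.31, unadjusted p = 0.221). Ndufs8 (chromosome 19, 3908863 to 3912774) holds the clusters that lead to Ndufs7. Its values ran the other way, with 42.8 and 31.1 CPM in WT and 29.2, 4.64 and 19.3 CPM in KIKO mice. All KIKO libraries lay below both WT libraries, KIKO replicate 1 only just, and the log2 fold change was −1.06 (−2.67 to 0.55, unadjusted p = 0.17). Without KIKO replicate 2 it was −0.59 (unadjusted p = 0.188).

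Ndufs3 (chromosome 2, 90894634 to 90904827), another core subunit of the Q module, had 25.9 and 25.8 CPM in WT and 36.3, 27.8 and 19.3 CPM in KIKO mice. The WT libraries were nearly equal and lay inside the range of the KIKO libraries, with a log2 fold change of 0.11 (−1.04 to 1.25, unadjusted p = 0.833). Of the 75-base windows of Ndufs3, 28.2% also occur in Gm12251 or Kbtbd4.

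The 5 subunits that carry clusters, Ndufs1, Ndufs7, Ndufs8, Ndufv1 and Ndufv2, were also summed, as iron-sulfur clusters are the electron path of the enzyme. Their summed level was 334.7 and 331.4 CPM in WT and 425.1, 384.8 and 401.8 CPM in KIKO mice, so that the groups did not overlap. The sum follows its more abundant members: 4 of the 5 had higher fitted values in KIKO mice, Ndufs8 lower ones, and the median log2 fold change was 0.38, or 0.32 without KIKO replicate 2. None of the 5 passed the thresholds. How often sums of 5 genes do not overlap was not computed, and the list was chosen with earlier results known. The summed level of the 36 subunit genes overlapped between the genotypes. Taken singly, 16.7% of all genes tested did not overlap between the genotypes, 8.2% with higher and 8.51% with lower values in KIKO mice. Among the 43 complex I genes this was so for 5 higher ones, Ndufaf8, Ndufc1, Ndufs7, Ndufv1 and Ndufb10, and 1 lower one, Ndufs8. Ndufb10, of the distal arm, was named after its values were seen and had 63.8 and 76.6 CPM in WT and 78.1, 91.2 and 79.2 CPM in KIKO mice.

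**Figure D3:**
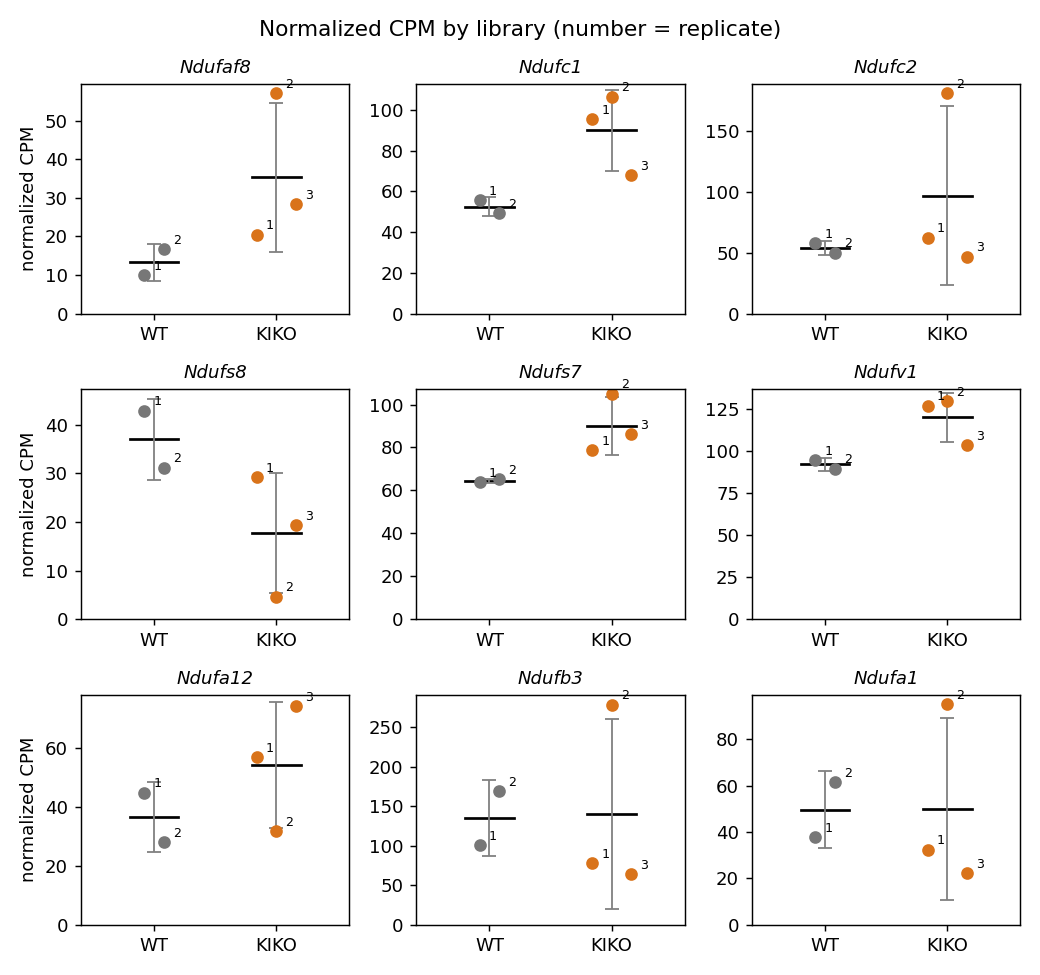
Normalized CPM of 9 complex I genes in WT and KIKO mice, each point a library with its replicate number, the horizontal line the mean and the bar the SD (n = 2 and 3). The top 2 rows show genes with small p or with groups apart, where KIKO replicate 2 is the highest library of Ndufaf8, Ndufc1, Ndufc2, Ndufs7 and Ndufv1 and the lowest of Ndufs8, and the bottom row shows the 3 genes that passed the thresholds without that library.

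Among accessory subunits, the smallest p belonged to Ndufc1 (chromosome 3, 51404677 to 51408988), a short subunit with a single span through the membrane. Ndufc1 had 55.8 and 49.3 CPM in WT and 95.4, 106.6 and 68 CPM in KIKO mice. All KIKO libraries were higher, and the log2 fold change was 0.78 (standard error 0.39, −0.12 to 1.67, unadjusted p = 0.0799), or 0.64 without KIKO replicate 2 (unadjusted p = 0.0586). Ndufc2 (chromosome 7, 97400003 to 97407802), its neighbour in the proximal arm, had 57.8 and 50.1 CPM in WT and 62.3, 180.8 and 46.7 CPM in KIKO mice. Here a single library carried the difference: the log2 fold change was 0.85 (−0.54 to 2.23, unadjusted p = 0.198) with KIKO replicate 2 and 0.02 without it. Ndufa3 (chromosome 7, 3617373 to 3620327), an accessory subunit of the same arm, had 27.9 and 53.9 CPM in WT and 68.6, 50.2 and 57.8 CPM in KIKO mice, which overlapped, with a log2 fold change of 0.52 (−0.51 to 1.54, unadjusted p = 0.278).

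For 3 accessory subunits with lower fitted values in KIKO mice, Ndufa10, Ndufb11 and Ndufb7, the difference was near 0 without KIKO replicate 2. Ndufa10 (chromosome 1, 92439010 to 92473860), whose values are given above, had a log2 fold change of −0.36 (−1.58 to 0.86, unadjusted p = 0.52), which was 0.024 without KIKO replicate 2. Ndufb11 (chromosome X, 20615326 to 20617619), of the distal arm, had 50.8 and 59.2 CPM in WT and 67.8, 15.5 and 39.6 CPM in KIKO mice, with KIKO replicate 1 above and the other two below the WT libraries. Its log2 fold change was −0.43 (−1.77 to 0.92, unadjusted p = 0.491), or −0.031 without KIKO replicate 2. Ndufb7 (chromosome 8, 83566671 to 83571626), on the intermembrane space side of the distal arm, had 57.8 and 67.5 CPM in WT and 50.5, 31.7 and 72.1 CPM in KIKO mice. The highest and the lowest value were both from KIKO mice, and the log2 fold change was −0.29 (−1.32 to 0.74, unadjusted p = 0.537), or −0.049 without KIKO replicate 2.

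Ndufab1 (chromosome 7, 122085403 to 122101886) is the acyl carrier protein of mitochondria, which sits in complex I and serves fatty acid synthesis and iron-sulfur cluster assembly as well. It had 113.6 and 68.3 CPM in WT and 83.6, 47.9 and 86.3 CPM in KIKO mice, with both KIKO replicates 1 and 3 between the WT libraries. The log2 fold change was −0.32 (−1.31 to 0.66, unadjusted p = 0.474), or −0.094 without KIKO replicate 2. Ndufa4, whose product belongs to cytochrome c oxidase, had 27.9 and 31.9 CPM in WT and 49.7, 30.9 and 27.4 CPM in KIKO mice. The KIKO libraries of Ndufa4 spanned both WT libraries. Ndufa4l2, its paralogue known to respond to hypoxia, had 0 and 4 counts in WT and 2, 3 and 2 counts in KIKO mice, at about the floor of 3 counts, and was not tested.

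The assembly factors were expressed at lower levels, with a sum of 136.5 and 163.8 CPM in WT and 134.1, 192.4 and 145.1 CPM in KIKO mice. Ndufaf8 (chromosome 11, 120098928 to 120100705) stabilizes Ndufaf5, which modifies Ndufs7. It had 9.96 and 16.7 CPM in WT and 20.5, 57.2 and 28.4 CPM in KIKO mice, that is 10 and 22 counts against 26, 74 and 28 counts. Every KIKO library was above both WT libraries, KIKO replicate 2 by far. The log2 fold change was 1.39 (standard error 0.63, −0.052 to 2.84, unadjusted p = 0.057), the highest of the 43 genes, and it was 0.84 without KIKO replicate 2 (unadjusted p = 0.135). Ndufaf8 passed the thresholds when every gene with at least 1 count was tested (unadjusted p = 0.0392), as did 1.52% of all genes with higher values. It also passed when 10 counts were asked of every library (unadjusted p = 0.0405, 0.899% of all genes) and without KIKO replicate 1 (unadjusted p = 0.0426, 0.663% of all genes). Its adjusted p in edgeR's test was 0.9999 each time.

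Ndufaf5, the hydroxylase that Ndufaf8 serves, had 8.96 and 20.5 CPM in WT and 11, 10.8 and 16.2 CPM in KIKO mice. All KIKO libraries lay between the WT libraries, and the log2 fold change was −0.23 (−1.78 to 1.32, unadjusted p = 0.744). Ndufaf3 and Ndufaf4, which act together on the Q module, had log2 fold changes of 0.19 (−1.32 to 1.71, unadjusted p = 0.776) and −0.13 (−1.16 to 0.90, unadjusted p = 0.778). Ndufaf3 had 8.96 and 17.4 CPM in WT and 15.8, 10.8 and 19.3 CPM in KIKO mice. Ndufaf4 had 46.8 and 54.6 CPM in WT and 62.3, 30.1 and 46.7 CPM in KIKO mice. For both, the genotypes overlapped.

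Ndufaf2, which holds the place of its paralogue Ndufa12 in the unfinished enzyme, had 23.9 and 14.4 CPM in WT and 9.46, 25.5 and 13.2 CPM in KIKO mice. The KIKO libraries spanned both WT libraries, with a log2 fold change of −0.24 (−1.75 to 1.26, unadjusted p = 0.721), and 1955 bases of its exons overlap B230220B15Rik on the other strand. Ndufaf7, a methyltransferase that acts on a core subunit, had 19.9 and 22.8 CPM in WT and 11.8, 53.3 and 14.2 CPM in KIKO mice. KIKO replicates 1 and 3 were below and KIKO replicate 2 above both WT libraries, so that the log2 fold change was 0.31 (−1.36 to 1.99, unadjusted p = 0.678) with and −0.72 (unadjusted p = 0.205) without that library. Ndufaf1 and Ndufaf6, of early assembly, were too low to be tested. Ndufaf1 had 4 and 13 counts in WT and 3, 0 and 5 counts in KIKO mice. Ndufaf6 had 14 and 10 counts in WT and 1, 6 and 2 counts in KIKO mice, and all its KIKO values, from 0.789 to 4.64 CPM, lay below the WT values of 13.9 and 7.58 CPM.

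**Figure D4:**
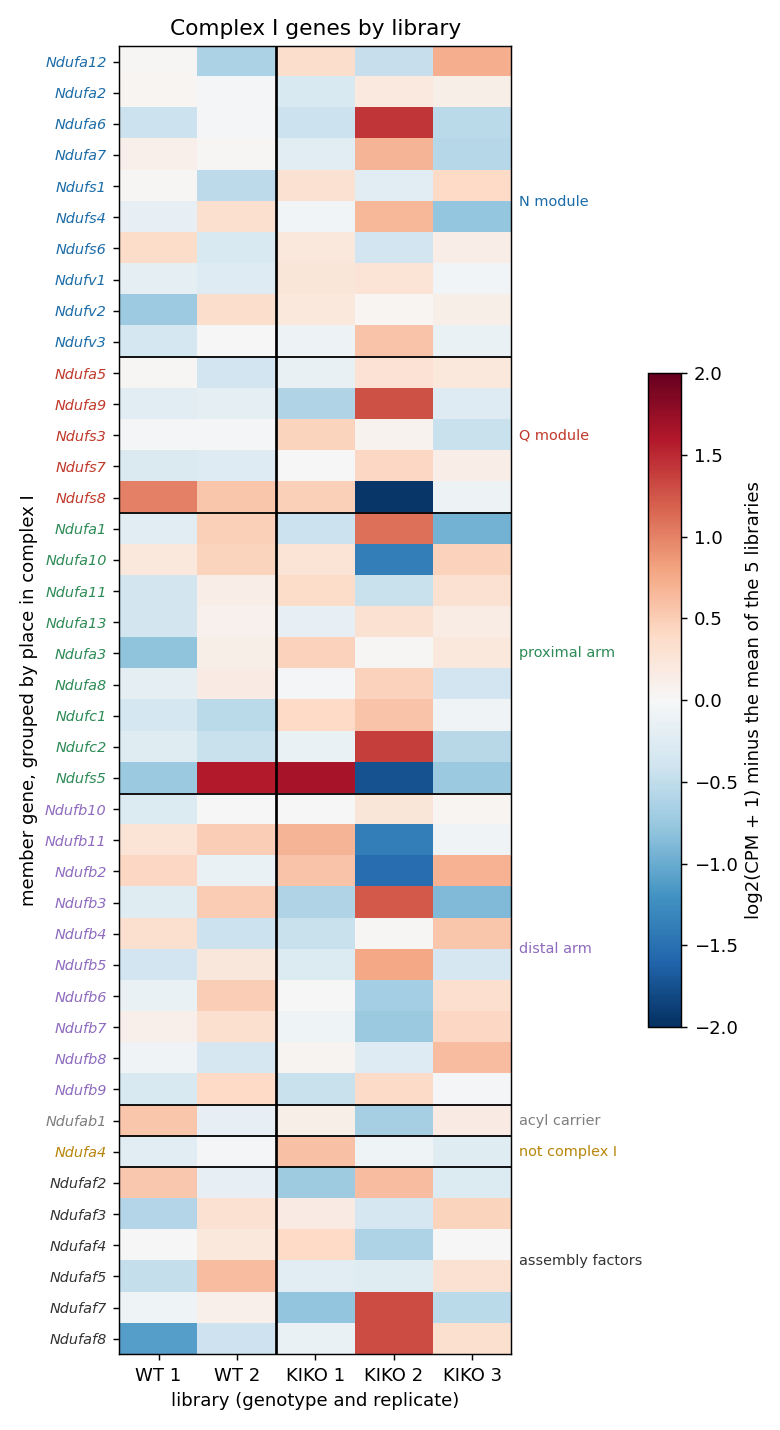
Log2(CPM + 1) minus the mean of the 5 libraries (colour) for 42 of the 43 complex I genes tested, in rows grouped by their place in the enzyme, and the 5 libraries in columns. The column of KIKO replicate 2 holds most of the strongest colours, in both directions.

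KIKO replicate 2 was the highest or the lowest of the 5 libraries in 32 of the 43 complex I genes, the highest in 21 and the lowest in 11. These were 74.4% of the complex I genes, and the same was so for 71% of all genes tested. Without KIKO replicate 2, 3 of the 43 genes passed the thresholds, compared with 6.45% of all 10373 genes then tested (2.94% with higher and 3.51% with lower values in KIKO mice). They were named after their values were seen, and their adjusted p lay between 0.403 and 0.582 (edgeR). No complex I gene and 0.0482% of all genes then had an adjusted p under 0.05. With all libraries weighted by sample quality (weight 0.163 for KIKO replicate 2 and 1.19 to 2.28 for the others), 2 of the 43 passed the thresholds, Ndufa12 with higher and Ndufb3 with lower values, compared with 4.77% of all genes (1.86% higher and 2.9% lower). Markers of other cells moved without KIKO replicate 2 as well: 3 of the 4 choroid plexus markers and 2 of the 4 oligodendrocyte markers passed the thresholds with lower values in KIKO mice and 2 of the 4 Purkinje neuron, 1 of the 6 granule neuron and 1 of the 5 blood markers with higher values. Their part in the results was not tested.

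Ndufb3, of the distal arm, had 100.6 and 169.1 CPM in WT and 78.1, 278.2 and 63.9 CPM in KIKO mice. Without KIKO replicate 2 its log2 fold change was −0.93 (unadjusted p = 0.00505), compared with 0.055 with all libraries. Ndufa1, encoded on the X chromosome and needed early for the proximal arm, had 37.9 and 61.4 CPM in WT and 32.3, 95.1 and 22.3 CPM in KIKO mice, and its log2 fold change without that library was −0.86 (unadjusted p = 0.0418). Ndufa12, which replaces Ndufaf2, had 44.8 and 28.1 CPM in WT and 56.8, 31.7 and 74.1 CPM in KIKO mice, and its log2 fold change without that library was 0.85 (unadjusted p = 0.0276). In Ndufb3 and Ndufa1, KIKO replicate 2 stood above both WT libraries while the other KIKO libraries stood below them. For Ndufa12, 22% of the 75-base windows also occur in Gm15920.

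The other genes of the pathway were read from lists. Of 10 further assembly factors with a row, 8 could be tested, 3 with higher and 5 with lower values in KIKO mice, and 0 passed the thresholds, with a median log2 fold change of −0.14 beside 0.0215 for all genes. Foxred1, of late assembly, had 26.9 and 31.9 CPM in WT and 10.2, 27.1 and 13.2 CPM in KIKO mice, with a log2 fold change of −0.80 (unadjusted p = 0.21), or −1.34 without KIKO replicate 2 (unadjusted p = 0.0166). Dmac2, of the distal arm assembly, had a log2 fold change of 0.50 (unadjusted p = 0.333).

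Summed, the mitochondrially encoded subunits were far more abundant than the nuclear ones, with 34527 and 55268 CPM in WT and 28381, 52137 and 33914.5 CPM in KIKO mice. The highest of these libraries were WT replicate 2 and KIKO replicate 2, and the genotypes overlapped. The sums were carried by mt-Nd1, mt-Nd2, mt-Nd4 and mt-Nd5, with means over the 5 libraries from 1832 CPM (mt-Nd5) to 23972 CPM (mt-Nd4). The means of mt-Nd3 and mt-Nd6, 15.4 and 37.5 CPM, lay within the range of the nuclear genes. Of 7 genes, 6 could be tested, 3 with higher and 3 with lower values in KIKO mice, and none passed the thresholds, while mt-Nd4l had 0 counts in every library. The smallest p belonged to mt-Nd6 (log2 fold change 0.75, unadjusted p = 0.35) and mt-Nd2 (−0.46, unadjusted p = 0.393). For mt-Nd6, with 11.9 and 41 CPM in WT and 19.7, 84.2 and 30.4 CPM in KIKO mice, the log2 fold change turned to −0.13 without KIKO replicate 2. Without that library mt-Nd3 was no longer tested, and 0 of the 5 tested genes had higher values. The median log2 fold change was −0.10 over the 6 genes tested with all libraries and −0.55 over these 5. One of them, mt-Nd5, then passed the thresholds with a lower value (−0.81, unadjusted p = 0.0117), against 3.51% of all genes, and is named here after its values were seen.

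Of 10 tested regulators of nuclear respiratory genes, 5 had higher and 5 lower fitted values in KIKO mice, and 1 passed the thresholds with a higher value, against 0.716% of all genes. Gabpa, the DNA-binding subunit of GABP, whose letters stand in the Ndufaf8 and Ndufs8 promoters shown above, was that gene. It had 3.98 and 4.55 CPM in WT and 9.46, 31.7 and 11.2 CPM in KIKO mice, that is 4 and 6 counts against 12, 41 and 11 counts. Both WT counts were under the filter's minimum count of 10, so Gabpa was tested only through its KIKO libraries. Its call therefore rests on a gene admitted by the group in which it was high. All KIKO libraries were higher, with a log2 fold change of 2.01 (standard error 0.87, unadjusted p = 0.0482, adjusted p = 1 in edgeR's test). Gabpa no longer passed under 7 of the 12 alternatives that gave a value. In edgeR's test the unadjusted p was 0.152 without KIKO replicate 2, where the log2 fold change was 1.24, 0.0532 without KIKO replicate 3, 0.158 without WT replicate 1, 0.141 without WT replicate 2 and 0.0843 with the replicate block. In limma's test it was 0.0714 with trend and 0.205 with sample quality weights, where the log2 fold change was 1.22. Without KIKO replicate 2, 3 of 9 tested regulators had higher values, and 1 passed, against 2.94% of all genes. It was Ppargc1a (0.91, unadjusted p = 0.0489), named after its values were seen. In the exons of Gabpa, 397 bases overlap Atp5j, a gene of ATP synthase on the other strand. Tfb2m, a factor of mitochondrial transcription, came next, with a log2 fold change of 1.68 (unadjusted p = 0.167). It had 2 and 10 counts in WT and 14, 43 and 3 counts in KIKO mice, and it too entered the test through KIKO libraries. No relation between Gabpa and the complex I genes was tested.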

How the data were processed

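Per the labels and the study's methods, trimming was done with Trimmomatic, alignment to mm10 with HISAT2 and counting per gene with featureCounts. Strand setting, annotation and treatment of reads that map to several places are not given in the sources used here, and the labels and the methods name different kits. The authors deposited raw whole-number counts and log2 values normalized with DESeq2. These log2 values returned the counts within 0.01 for 100% of entries, with size factors from 0.877 to 1.19. Each table has 2 further columns of per-sample values that match no sample and were not used. The labels do not say to which of the study's experiments the libraries belong.

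Symbols came from GENCODE M21 (GRCm38), matched for 31011 of 31053 rows (99.9%). The model was fitted with edgeR 4.0.16 (R 4.3.3): filterByExpr (minimum count 10, minimum total 15), TMM factors (0.971 to 1.06), glmQLFit and glmQLFTest, two-sided, genotype as the only term, Benjamini-Hochberg adjustment over 10889 genes. The common biological coefficient of variation was 0.468. Confidence intervals are 95%. The 3 counts used as floor cover counting error only. The code was tested on simulated data.

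Alternatives were DESeq2 1.42.0, other scalings and filters, the replicate number as a block, limma 3.58.1 with trend on the deposited log2 values, sample quality weights and each library left out. The complex I genes, the other lists and the rule for named genes (the 7 core subunits, genes past the thresholds, the 5 smallest p in each direction, the 3 highest and 3 lowest tested, Ndufa4, Ndufa4l2 and all Ndufaf genes, and of other lists genes past the thresholds and the 2 smallest p) were chosen with earlier results of these data known. The list of other assembly factors holds 11 symbols, of which Coa1 was not matched. Some results are not reported here.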

Additional observations from a re-analysis of the deposited data

How the results depend on the processing

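The count of complex I genes with an adjusted p under 0.05 was 0 under all 13 alternatives. The count past the thresholds was 0 of the subunits except with sample quality weights, where it was 2 (Ndufa12 and Ndufb3), and without KIKO replicate 2, so that it ran from 0 to 3 when single libraries were left out. For the assembly factors it was 1 (Ndufaf8) with every gene with at least 1 count and with at least 10 counts in every library, and ran from 0 to 1 when libraries were left out. For all genes the count of 131 became 383 with every gene with at least 1 count and 519 with sample quality weights, and it ran from 56 (without WT replicate 1) to 669 (without KIKO replicate 2). The median log2 fold change of the subunits, 0.20, was 0.0547 with sample quality weights and ran from 0.033 to 0.28 when libraries were left out. That of the assembly factors, 0.032, ran from −0.20 to 0.39.

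Both genotypes have replicate numbers in the labels, but only 2 pairs of numbers exist and nothing in the labels pairs the mice. Deviations from the genotype means correlated with r of 0.18 and 0.239 for same-numbered libraries. For WT replicate 1 and KIKO replicate 3 the value was 0.218. With 2 WT libraries the deviations mirror each other, so WT replicate 2 and KIKO replicate 3 gave −0.218. Such correlations cannot show or deny pairing. With the replicate block, 271 of all genes, 0 subunits and 0 assembly factors passed the thresholds, and the median of the subunits was 0.226.

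Signs were counted for 25 genes whose fold changes were given under the rule for named genes. Other complex I genes named in the text were not in this count. Of those, Ndufb3, Ndufa1, Ndufa6, Ndufs5 and Ndufa2 changed sign without KIKO replicate 2, while Ndufa12, Ndufv3, Ndufa5, Ndufb10 and Ndufa4 did not. Of the 25 genes, 15 kept the sign of their log2 fold change under every alternative that gave a value. For 3 of these a value was missing: Gabpa and Ndufs8 had none with at least 10 counts in every library, and Tfb2m had none there or without KIKO replicate 1 or 2. With sample quality weights it was 0.083 for Ndufaf4 and −0.65 for Ndufaf7, and with limma with trend it was −0.013 for Ndufaf7. With single libraries left out it ran from −0.67 to 0.024 for Ndufa10, −0.66 to 0.083 for Ndufab1, −0.76 to 0.14 for Ndufaf2, −0.20 to 0.75 for Ndufaf3, −0.40 to 0.10 for Ndufaf4, −0.70 to 0.48 for Ndufaf5, −0.72 to 0.67 for Ndufaf7, −0.13 to 0.31 for Ndufs3, −0.23 to 0.85 for Ndufv2 and −0.13 to 1.87 for mt-Nd6. Their cause was not tested. With 2 WT libraries at this depth, intervals of single genes were wide, and the genes with few counts could be judged least.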
